A study of Mus musculus with 16 samples.

Results

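TNF receptors are membrane proteins that bind ligands of the TNF family and pass the signal to adaptor proteins inside the cell. The RNA of 9 mouse receptor genes was followed in the tibialis anterior, a shin muscle of the mouse. They were Tnfrsf23, Tnfrsf22, Tnfrsf12a, Tnfrsf1a, Tnfrsf1b, Tnfrsf10b, Tnfrsf11a, Tnfrsf19 and Tnfrsf21, each found as 1 row among the 29730 genes of the count table. The genes were chosen by symbol, with the values of Tnfrsf23 and its family in these same samples already known. Their differences between groups are therefore given as a description, without P values. All 9 passed the filter on low counts.

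RNA sequencing covered 16 male C57BL/6N mice aged 7 weeks, with 4 mice in each of 4 groups. WT_PBS and WT_ASO were wild-type mice given phosphate-buffered saline (PBS) or the antisense oligonucleotide ASO1, and KO_PBS and KO_ASO were Bin1mck-/- mice given the same. Such oligonucleotides bind an RNA by base pairing to reduce its amount, and Dnm2 is the target named by the series. Bin1 encodes a protein that shapes membranes and Dnm2 a GTPase that cuts them, and the model is one of centronuclear myopathy. The labels do not spell out the mck of the genotype name, and give neither the part of Bin1 deleted nor the dose and schedule of the oligonucleotide. They do not name a control oligonucleotide, so the sequence of ASO1 and the act of giving an oligonucleotide cannot be told apart.

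Total counts per sample ran from 27591900 to 40862854. Bin1 RNA in KO_PBS was 9.08% of its WT_PBS mean, and Dnm2 RNA was 45.7% of it in WT_ASO and 44.1% in KO_ASO. Muscle fibre markers were abundant in every sample, with summed levels of 8 genes between 126000 and 217000 CPM, a measure of the reads of a gene relative to all reads of its library. With edgeR all 9 macrophage markers tested rose in KO_PBS, from summed levels of 45.5 to 74.3 CPM in WT_PBS to 119 to 355 CPM in KO_PBS, and the sums in KO_ASO were 48.8 to 74.5 CPM. None of the 9 macrophage markers was at 0 throughout a group. With edgeR 7.43% of all genes tested rose in KO_PBS at an adjusted P under 0.05, and 5.12% fell. Of 6 fibroblast markers 2 rose in KO_PBS, with sums of 1050 to 1810 CPM against 798 to 1060 CPM in WT_PBS, ranges that overlapped. The fibroblast sums in WT_ASO ran from 370 to 1260 CPM. Of 8 muscle fibre markers 2 fell. DESeq2 called 9 macrophage, 3 fibroblast and 4 muscle fibre markers, beside 16.9% of all genes. Limma called 8, 3 and 3, beside 18.0% of all genes. Among 5 markers of satellite cells and myoblasts, Myog rose (log2 fold change (log2FC) 2.70, adjusted P = 6.89e-05), while Pax7 (log2FC -1.39, adjusted P = 0.000654) and Myf5 (log2FC -1.30, adjusted P = 0.03) fell. The part of these cell populations in the receptor values was not tested, and in bulk muscle fewer cells of a type and less RNA per cell cannot be told apart.

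In this family the receptors differ by what they bind and by their inner part. Tnfrsf23 and Tnfrsf22 are mouse decoy receptors for TRAIL, the product of Tnfsf10, and lack a working death domain, the inner part that starts cell death. Tnfrsf10b is the mouse TRAIL receptor that carries one. Tnfrsf1a and Tnfrsf1b are the receptors of TNF itself. Tnfrsf12a, also named Fn14, is the receptor of TWEAK, the product of Tnfsf12, and is known in muscle for its increase after injury and denervation. Tnfrsf11a, or RANK, is known for its role in bone-resorbing cells. Tnfrsf19 (TROY) and Tnfrsf21 (death receptor 6) are best known from the nervous system. Many of these receptors act through TRAF adaptors on NF-kB, a family of transcription factors with a classical branch and an alternative branch, the latter built on the products of Nfkb2 and Relb.

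Tnfrsf23 and Tnfrsf22 lie side by side on the minus strand of chromosome 7 (GRCm38), at 143665809 to 143685872 and at 143634806 to 143649661, with a gap of 16.1 kb. Their sequences bear on how far the reads of one can be told from those of the other. The longest annotated coding sequences, of 528 bases in Tnfrsf23 and 594 bases in Tnfrsf22, were identical at 90.7% of 528 aligned bases, with a longest identical run of 102 bases. The stretches printed here are coding bases 47 to 196 of Tnfrsf23 and 77 to 226 of Tnfrsf22, counted from the first base of the start codon, the first 150 bases that aligned without a gap. Capitals mark the 19 positions at which both genes differ.
Tnfrsf23: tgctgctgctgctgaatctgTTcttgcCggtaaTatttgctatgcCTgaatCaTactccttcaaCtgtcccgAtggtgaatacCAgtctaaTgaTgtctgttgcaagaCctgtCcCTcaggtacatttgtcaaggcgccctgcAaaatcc
Tnfrsf22: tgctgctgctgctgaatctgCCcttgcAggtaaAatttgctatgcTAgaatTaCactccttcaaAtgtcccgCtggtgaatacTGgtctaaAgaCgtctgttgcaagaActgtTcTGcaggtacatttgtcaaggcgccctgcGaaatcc
Between the marked positions the letters of both genes are the same, and runs without a capital are common. The transcripts shared 719 words of 50 bases, which made up 18.0% of those of Tnfrsf23 and 17.3% of those of Tnfrsf22. How long the reads were and how those matching both genes were treated is not given in the sources used here, so part of the reads could have been left out or placed on the other gene. The next receptor gene of the row, Tnfrsf26, lies 6.08 kb from Tnfrsf22 and shared 0 such words with either.

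Promoter letters are printed for Tnfrsf23 and Tnfrsf12a, the receptors with the largest log2FC of the 9 in KO_PBS, as the 250 bases before the RefSeq start on GRCm38.p6, read from the minus strand. The window of Tnfrsf23 is chr7:143685876-143686125 and that of Tnfrsf12a is chr17:23677450-23677699. Capitals mark matches to 5 motifs searched on both strands, whose matches did not overlap. The word for NF-kB was GGANTTTCC. The word for AP-1 was TGANTCA, the E-box word was CAGCTG, the word for RUNX factors was TGTGGT and the word of the TATA box was TATAAA.
Tnfrsf23: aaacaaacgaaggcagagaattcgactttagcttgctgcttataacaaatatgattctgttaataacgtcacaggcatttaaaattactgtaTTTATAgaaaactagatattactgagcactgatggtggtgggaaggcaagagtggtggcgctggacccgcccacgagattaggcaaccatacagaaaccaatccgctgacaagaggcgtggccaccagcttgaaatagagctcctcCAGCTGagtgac
Tnfrsf12a: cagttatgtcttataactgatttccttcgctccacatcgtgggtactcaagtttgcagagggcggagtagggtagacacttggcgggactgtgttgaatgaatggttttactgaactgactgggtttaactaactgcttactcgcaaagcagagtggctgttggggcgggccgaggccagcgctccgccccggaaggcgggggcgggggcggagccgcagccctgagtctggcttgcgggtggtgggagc
In the Tnfrsf23 window an E-box word stood at -12 and a TATA word, read on the other strand, at -158. The Tnfrsf12a window held none of the 5 words. Among 32851 RefSeq windows of 300 bases, from 250 before to 50 after the start, 16.3% held the E-box word, 13.6% the TATA word, 16.8% the RUNX word, 7.81% the AP-1 word and 1.25% the NF-kB word. The 300-base window of Tnfrsf23 was 46.3% G and C with 9 CpG, and that of Tnfrsf12a was 59.7% with 20 CpG, beside medians of 52.7% and 7 over all windows. Windows were found for 7 of the 9 receptors. A match is a description of letters only.

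The receptors covered a wide range of levels in control muscle. Divided by exon length in kilobases (RPKM), the WT_PBS means of CPM were 9.48 for Tnfrsf21, 9.45 for Tnfrsf12a and 8.84 for Tnfrsf1a, and the ranges of these 3 overlapped. Tnfrsf19 followed at 4.38 RPKM, and its highest sample (5.7 RPKM) lay below the lowest of Tnfrsf12a (6.41 RPKM). Tnfrsf1b at 1.23 RPKM and Tnfrsf23 at 0.999 RPKM overlapped. Tnfrsf22 stood at 0.422 RPKM, Tnfrsf10b at 0.26 RPKM and Tnfrsf11a at 0.0797 RPKM, each without overlap with the gene above it. In KO_PBS the order began with Tnfrsf12a at 35.1 RPKM, ahead of Tnfrsf1a at 10.4 RPKM and Tnfrsf21 at 10 RPKM, and Tnfrsf23 at 4.01 RPKM lay above Tnfrsf1b at 1.8 RPKM. The counts behind these levels ran from 9 to 75 reads per sample for Tnfrsf11a and from 922 to 1990 for Tnfrsf21.

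**Figure D1:**
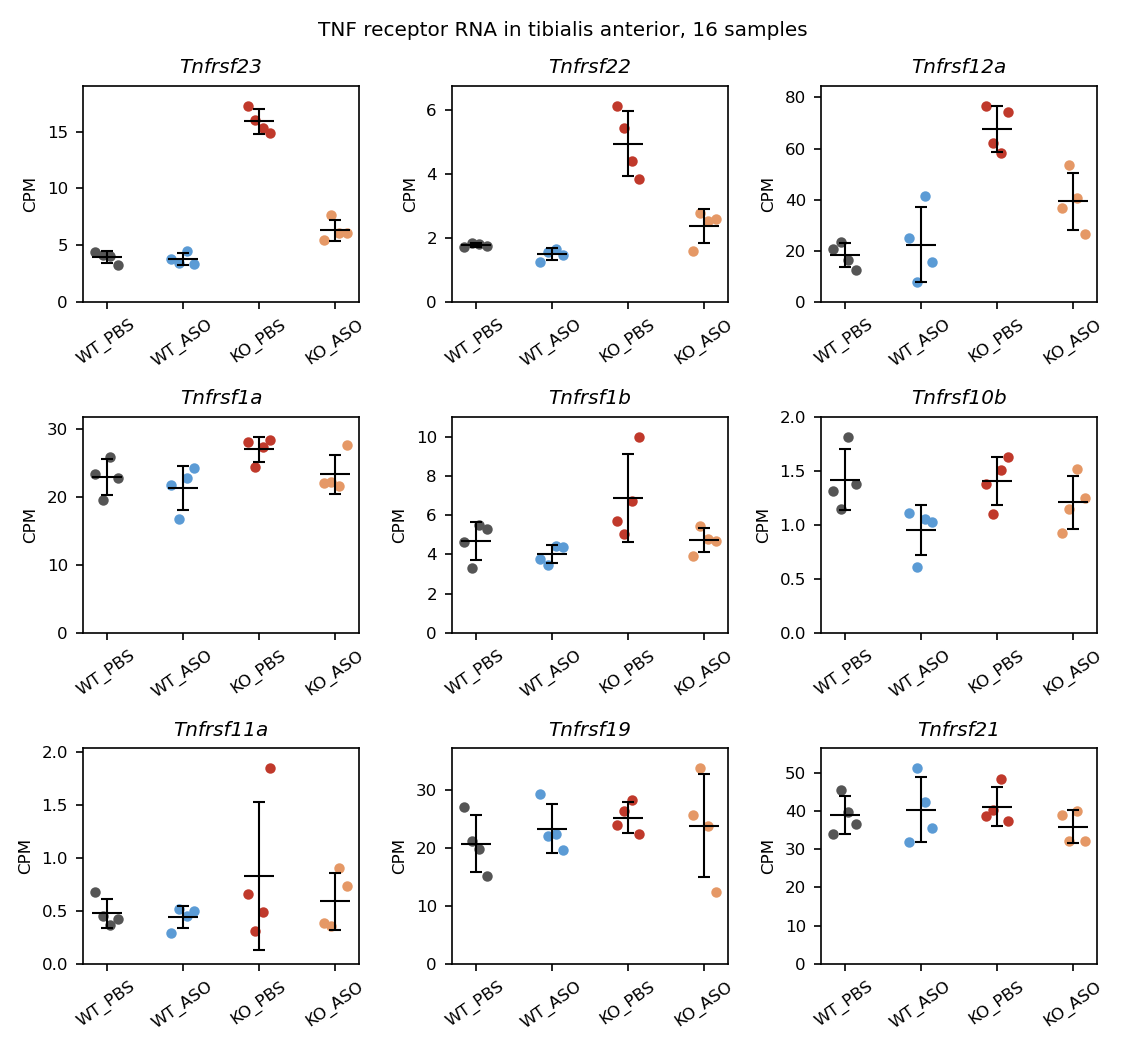
CPM of the 9 receptors in each of the 16 samples, with 1 panel per gene, a linear vertical axis from 0 and the 4 groups on the horizontal axis. Points are mice, in order of replicate number from left to right, and the black bars are means with SD (n = 4). In the Tnfrsf23 panel the KO_PBS points sit between 14.9 and 17.3 CPM, above all points of the other groups.

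To describe the effect of genotype under saline, KO_PBS was set beside WT_PBS. Both TRAIL decoy receptors and Tnfrsf12a were higher in KO_PBS, while the other 6 receptors showed smaller differences. Over all 14960 genes tested with edgeR, 12.6% were differentially expressed genes (DEGs, adjusted P under 0.05), 7.43% higher and 5.12% lower. Of the 9 receptors 3 met this threshold as higher and 0 as lower. Since the contrast was known when the receptors were chosen, nothing is read from that count. How many of all genes had groups without overlap was not counted, so overlap or its absence is given here only as a description of values. The median log2FC of the 9 receptors was 0.55, and that of all genes was -0.0108.

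Tnfrsf23 had 4.39, 4.13, 4.07 and 3.23 CPM in the WT_PBS mice and 17.3, 16, 15.3 and 14.9 CPM in the KO_PBS mice. Every KO_PBS mouse lay above every WT_PBS mouse. The means were 3.96 ± 0.501 and 15.9 ± 1.08 CPM (SD, n = 4), KO_PBS being at 401% of WT_PBS. The log2FC was 2.01 (SE 0.13), and it stayed between 1.92 and 2.06 when each of the 16 samples was left out in turn. The coefficient of variation within KO_PBS was 6.78%.

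Tnfrsf22 had 1.73, 1.83, 1.82 and 1.76 CPM in WT_PBS and 6.15, 5.44, 4.41 and 3.85 CPM in KO_PBS. The groups did not overlap, the KO_PBS mean of 4.96 ± 1.03 CPM (SD, n = 4) was 279% of that of WT_PBS, and the log2FC was 1.48 (SE 0.18). Within KO_PBS the mice kept the same order for both decoy receptors, replicate 1 being highest and replicate 4 lowest. Replicate 4 was also the KO_PBS sample with the highest summed macrophage markers, 355 CPM against 119 to 199 CPM in the others. Without it the log2FC was 2.04 for Tnfrsf23 and 1.59 for Tnfrsf22.

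Tnfrsf12a, the TWEAK receptor, lies on chromosome 17 at 23675445 to 23677468 on the minus strand. Its level was 20.7, 23.4, 16.5 and 12.4 CPM in WT_PBS and 76.7, 62.2, 58.2 and 74.3 CPM in KO_PBS. No KO_PBS mouse fell within the WT_PBS range, and the mean of 67.8 ± 9.02 CPM (SD, n = 4) was 372% of that of WT_PBS. The log2FC was 1.90 with an SE of 0.39, a wider error than that of Tnfrsf23 at a similar fold change.

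The TNF receptors differed less. Tnfrsf1b, known for its expression in immune and endothelial cells, had 4.62, 3.31, 5.52 and 5.27 CPM in WT_PBS and 5.71, 5.04, 6.7 and 10 CPM in KO_PBS, with a log2FC of 0.55 (SE 0.20). The groups overlapped, and the highest value belonged to KO_PBS replicate 4, the sample with the most macrophage marker RNA. Without that sample the log2FC was 0.32. Tnfrsf1b did not meet the threshold here, and did without KO_PBS replicate 2 (log2FC 0.67) or without scaling beyond totals (log2FC 0.70). Tnfrsf1a ran from 19.5 to 25.9 CPM in WT_PBS and from 24.3 to 28.4 CPM in KO_PBS, with a log2FC of 0.24 (SE 0.12).

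Tnfrsf11a was the least abundant receptor, with 0.673, 0.447, 0.363 and 0.426 CPM in WT_PBS and 0.662, 0.312, 0.488 and 1.85 CPM in KO_PBS. A single KO_PBS mouse, again replicate 4, carried the difference. The log2FC was 0.80 (SE 0.47) with it and 0.04 without it. Tnfrsf19 ran from 15.1 to 27.0 CPM in WT_PBS and from 22.3 to 28.3 CPM in KO_PBS (log2FC 0.28, SE 0.23). Tnfrsf21 ran from 33.9 to 45.5 CPM and from 37.3 to 48.5 CPM (log2FC 0.08, SE 0.14). Tnfrsf10b, the TRAIL receptor with a death domain, ran from 1.15 to 1.82 CPM and from 1.1 to 1.63 CPM (log2FC -0.01, SE 0.22), and its groups overlapped.

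**Figure D2:**
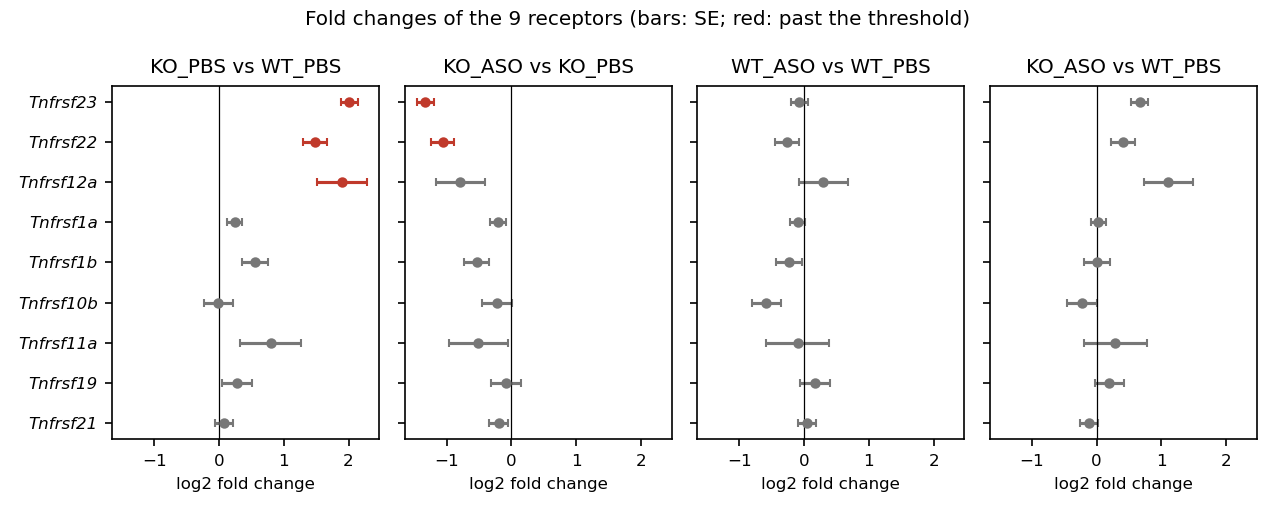
Log2FC (horizontal axis) of the 9 receptors (vertical axis) in 4 comparisons, with bars of 1 SE from the edgeR fit over 16 samples and red points for adjusted P under 0.05. Tnfrsf23 stands at 2.01 in KO_PBS vs WT_PBS and at -1.33 in KO_ASO vs KO_PBS, and no receptor is red in the other 2 panels.

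To describe the effect of the oligonucleotide in the knockout, KO_ASO was set beside KO_PBS. These values share the KO_PBS samples with the genotype comparison, so a high or low KO_PBS sample moves both in opposite directions. The log2FC of all 9 receptors was negative, with a median of -0.51 beside 0.0102 over all genes, but the sign rested on 1 sample for Tnfrsf11a (0.25 without KO_PBS replicate 4) and for Tnfrsf19 (0.14 without KO_ASO replicate 4). Of all genes tested 3.64% were DEGs, 2.83% lower and 0.802% higher. Of the receptors 2 met the threshold as lower, Tnfrsf23 and Tnfrsf22, and 0 as higher. This contrast too was known when the receptors were chosen, so nothing is read from these counts or from the shared sign.

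Tnfrsf23 had 5.46, 7.64, 6.09 and 6.03 CPM in the KO_ASO mice, all below the lowest KO_PBS mouse. The log2FC was -1.33 (SE 0.13), and the KO_ASO mean of 6.3 ± 0.934 CPM (SD, n = 4) was 159% of that of WT_PBS. Tnfrsf22 had 1.6, 2.78, 2.53 and 2.61 CPM, also below all KO_PBS mice, with a log2FC of -1.06 (SE 0.18). Tnfrsf12a had 36.7, 53.5, 40.5 and 26.5 CPM. These too lay below the KO_PBS range, but the log2FC of -0.79 had an SE of 0.38 and did not meet the threshold.

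The remaining receptors were closer together. Tnfrsf1b ran from 3.94 to 5.46 CPM in KO_ASO, with a log2FC of -0.54 (SE 0.20) that was -0.32 without KO_PBS replicate 4. Tnfrsf11a ran from 0.352 to 0.9 CPM, and its log2FC of -0.51 (SE 0.46) became 0.25 without that sample. The log2FC was -0.22 (SE 0.23) for Tnfrsf10b, -0.21 (SE 0.12) for Tnfrsf1a, -0.20 (SE 0.14) for Tnfrsf21 and -0.08 (SE 0.23) for Tnfrsf19. In the same comparison all 9 macrophage markers had a negative log2FC (-2.63 to -1.01) and an unadjusted P under 0.05, and 6 of them fell with edgeR, 9 with DESeq2 and 7 with limma. Of the 6 fibroblast markers edgeR called 1, DESeq2 2 and limma 3. Over all genes edgeR called 3.64%, DESeq2 7.07% and limma 7.95%.

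In wild-type mice the oligonucleotide was followed by little difference in the receptors. With edgeR 0.00668% of all genes, or 1 gene, were DEGs in WT_ASO vs WT_PBS. That gene was Dnm2, the target (log2FC -1.13, SE 0.11, adjusted P = 0.000396). Of the receptors 0 were DEGs (1 at an unadjusted P under 0.05, 0 with DESeq2 and 0 with limma). Tnfrsf23 had 3.73, 3.44, 4.49 and 3.36 CPM in WT_ASO, overlapping WT_PBS, with a log2FC of -0.07 (SE 0.13). Tnfrsf22 had 1.24, 1.56, 1.67 and 1.47 CPM, below all WT_PBS mice by a small margin (log2FC -0.26, SE 0.19). Tnfrsf10b had 1.11, 0.608, 1.06 and 1.03 CPM, also below all WT_PBS mice (log2FC -0.58, SE 0.23). Tnfrsf12a was the most variable receptor of this group, with 25.1, 7.61, 41.5 and 15.4 CPM, a coefficient of variation of 65.2% and a log2FC of 0.30 (SE 0.38) that ran from -0.19 to 0.58 when single samples were left out.

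The interaction asked whether the oligonucleotide effect differed between genotypes. It covered 0.575% of all genes and 1 of the receptors, Tnfrsf23, for which the difference of the log2FC was -1.26 (SE 0.18). It was -0.80 (SE 0.26) for Tnfrsf22 and -1.08 (SE 0.53) for Tnfrsf12a, which did not meet the threshold. For Tnfrsf12a it was -0.60 without WT_ASO replicate 3, the highest sample of its group, and ran to -1.37 without WT_ASO replicate 2, the lowest. A value short of the threshold does not show that the effect was alike in both genotypes.

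KO_ASO and WT_PBS differ in both genotype and treatment. With edgeR 0.0401% of all genes were DEGs, and 0 of the receptors (3 at an unadjusted P under 0.05, 1 with DESeq2 and 0 with limma). Tnfrsf23 was still above all WT_PBS mice in every KO_ASO mouse (log2FC 0.67, SE 0.13), and Tnfrsf12a likewise (log2FC 1.11, SE 0.38). Tnfrsf22 overlapped, since KO_ASO replicate 1 at 1.6 CPM lay below the lowest WT_PBS mouse (log2FC 0.41, SE 0.19). For Tnfrsf1b the log2FC was 0.01 (SE 0.20) and for Tnfrsf1a 0.03 (SE 0.12).

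The genes around Tnfrsf23 were read to see how far along the chromosome the difference extended. Within 250 kb lay 19 genes of the table, of which 13 were tested and 11 were not among the 9 receptors. Osbpl5, which encodes a lipid transfer protein and lies 2.89 kb from Tnfrsf23 on the same strand, was the single DEG of these 11 (9.09%, beside 12.6% of all genes). Its level was 17.5, 20.4, 20.6 and 17.4 CPM in WT_PBS and 22.7, 22.8, 28.0 and 26.1 CPM in KO_PBS. It rose in KO_PBS without overlap (log2FC 0.39, SE 0.09, adjusted P = 0.0108) and fell in KO_ASO vs KO_PBS (log2FC -0.38, SE 0.09, adjusted P = 0.0335), a call lost without any of 5 samples in turn (highest adjusted P = 0.11) and with the compared groups alone (adjusted P = 0.0715). On the other side Tnfrsf26 had only 4 to 33 reads per sample, and its log2FC was 0.21 (SE 0.45, adjusted P = 0.806). The log2FC of the 11 genes in KO_PBS vs WT_PBS ran from -0.84 to 0.72.

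**Figure D3:**
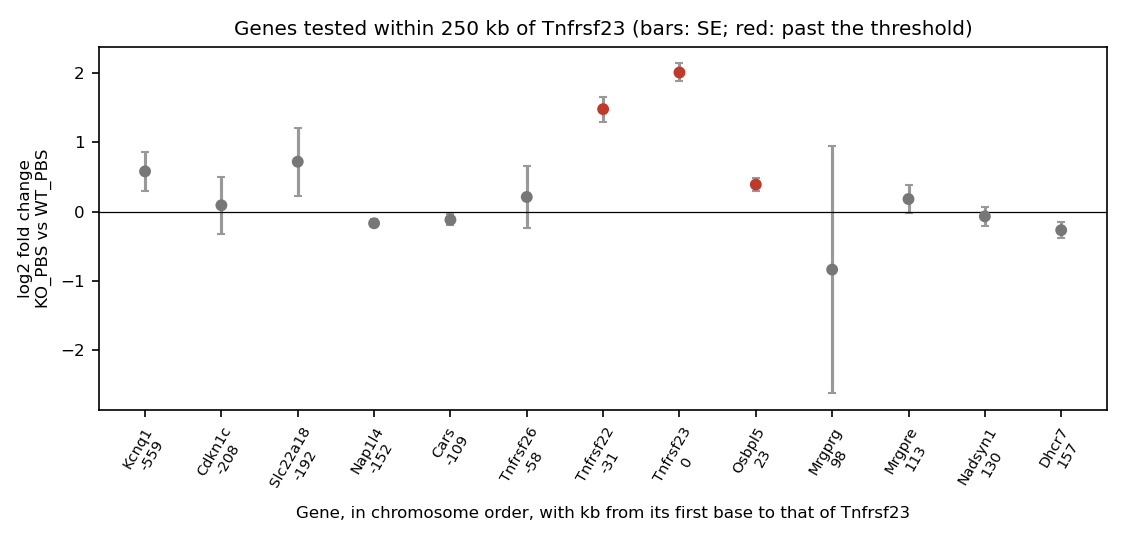
Log2FC in KO_PBS vs WT_PBS (vertical axis, bars of 1 SE) of the 13 genes tested within 250 kb of Tnfrsf23, evenly spaced in chromosome order, with the distance in kb from the first base of each gene to that of Tnfrsf23 under its name. Red points have an adjusted P under 0.05, and they are Tnfrsf22 (1.48), Tnfrsf23 (2.01) and Osbpl5 (0.39), side by side.

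Among 19 other receptors of the family, 14 were tested, with a median log2FC of 0.20 in KO_PBS vs WT_PBS. With edgeR 1 of them (7.14%, beside 12.6% of all genes) was a DEG, Eda2r, the receptor of an ectodysplasin isoform. Its level was 11.3, 14.4, 10.3 and 10.4 CPM in WT_PBS, 96.0, 68.3, 54.5 and 110 CPM in KO_PBS, and 37.4, 44.7, 21.4 and 19.0 CPM in KO_ASO. These 3 groups did not overlap, with KO_ASO between both others. In WT_ASO it was 30.3, 21.3, 10.5 and 11.8 CPM, which overlapped both WT_PBS and KO_ASO (log2FC 0.67 against WT_PBS, SE 0.35, adjusted P = 0.802). Eda2r rose in KO_PBS (log2FC 2.83, SE 0.37, adjusted P = 0.000189) and fell in KO_ASO vs KO_PBS (log2FC -1.42, SE 0.35, adjusted P = 0.0373). The fall was no longer called without any of 7 samples in turn (highest adjusted P = 0.11), without the filter on low counts, or with the compared groups alone. Its interaction was -2.10 (SE 0.49, adjusted P = 0.071), and DESeq2 called it (adjusted P = 0.00113) while limma did not. DESeq2 called 2 of these receptors in either comparison and limma 1, and 3 had an unadjusted P under 0.05 in each. For this and the following lists, DESeq2 called 16.9% of all genes in KO_PBS vs WT_PBS and 7.07% in KO_ASO vs KO_PBS. Limma called 18.0% and 7.95% of all genes. The share of all genes with an unadjusted P under 0.05 was not counted. The receptor added by DESeq2 was Cd27, a co-stimulatory receptor of lymphocytes, with a log2FC of -2.07 (SE 0.73, adjusted P = 0.0753 with edgeR) in KO_PBS vs WT_PBS and of 2.40 (SE 0.73, adjusted P = 0.0804) in KO_ASO vs KO_PBS. With edgeR Cd27 was also called in the former with the compared groups alone and without WT_ASO replicate 4 or KO_ASO replicate 1, and in the latter without WT_ASO replicate 4 or KO_ASO replicate 4.

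Of 17 ligand genes in the table only 6 were tested, and 0 were DEGs with edgeR in KO_PBS vs WT_PBS or in KO_ASO vs KO_PBS. In KO_ASO vs KO_PBS 0 had an unadjusted P under 0.05, and DESeq2 and limma called 0. In KO_PBS vs WT_PBS DESeq2 called 0 and limma 2, and the unadjusted P was under 0.05 for 2 ligands, Tnfsf10 (log2FC -0.53, SE 0.22, adjusted P = 0.122) and Tnfsf13 (log2FC -0.98, SE 0.32, adjusted P = 0.0558). Limma called these same 2, and edgeR called Tnfsf13 without WT_PBS replicate 2 or WT_ASO replicate 3. Tnfsf10 encodes TRAIL, the ligand of the decoy receptors. Tnfsf12, which encodes TWEAK, had a log2FC of 0.17 (SE 0.18, adjusted P = 0.598), with 3.57, 3.31, 4.12 and 3.99 CPM in WT_PBS and 4.44, 3.85, 5.07 and 3.53 CPM in KO_PBS. The groups overlapped for this ligand gene.

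Inside the cell, 1 of 18 adaptor and death signalling genes (5.56%, beside 12.6% of all genes) was a DEG with edgeR in KO_PBS vs WT_PBS. This was Birc3, an inhibitor of apoptosis that works with TRAF proteins, which rose in KO_PBS (log2FC 0.51, SE 0.12, adjusted P = 0.0131) from 5.65 ± 0.946 to 8.05 ± 0.424 CPM (SD, n = 4). The median log2FC of the 18 genes was 0.04, and 6 had an unadjusted P under 0.05. DESeq2 and limma each called 3, namely Birc3, Cyld (log2FC 0.42, SE 0.14, adjusted P = 0.0646 with edgeR) and Traf6 (log2FC -0.25, SE 0.09, adjusted P = 0.0631 with edgeR). With edgeR 0 of them were DEGs in KO_ASO vs KO_PBS (2 at an unadjusted P under 0.05, 1 DEG with DESeq2 and 1 with limma), where Birc3 had a log2FC of -0.43 (SE 0.12, adjusted P = 0.0671).

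Of 14 core genes of NF-kB 3 (21.4%) rose in KO_PBS with edgeR, beside 7.43% of all genes that rose, with a median log2FC of 0.20. The gene lists were chosen with earlier results of these data known, so this share is a description. Nfkb2, a subunit gene of the alternative branch, had 12.4, 11.3, 15 and 11.9 CPM in WT_PBS, 30.7, 35.3, 41.1 and 35.6 CPM in KO_PBS and 16.4, 20.9, 16.7 and 17.2 CPM in KO_ASO. These 3 groups did not overlap. In WT_ASO it was 15.2, 9.26, 11.7 and 9.95 CPM, overlapping WT_PBS. Nfkb2 rose in KO_PBS (log2FC 1.5, SE 0.14, adjusted P = 1.14e-05) and fell in KO_ASO vs KO_PBS (log2FC -1.0, SE 0.14, adjusted P = 0.00108), and both calls held without each sample in turn. Its interaction was -0.87 (SE 0.20, adjusted P = 0.0634). The interaction was called with DESeq2 (adjusted P = 0.0062), with limma (adjusted P = 0.0466), without the filter on low counts and without WT_ASO replicate 2, and its highest adjusted P was 0.152, without WT_PBS replicate 4. Relb, its partner in the alternative branch, rose as well (log2FC 0.83, SE 0.19, adjusted P = 0.00791). Relb fell in KO_ASO vs KO_PBS (log2FC -0.70, SE 0.18, adjusted P = 0.0448), a call lost without any of 13 samples in turn (highest adjusted P = 0.147) and with the compared groups alone (adjusted P = 0.109). Nfkbie, an inhibitor of NF-kB, rose from 0.7 ± 0.125 to 1.61 ± 0.266 CPM (SD, n = 4, log2FC 1.21, SE 0.34, adjusted P = 0.0293), and this call was lost without any of 6 samples in turn (highest adjusted P = 0.0729). The classical subunit genes Rela (log2FC 0.11, SE 0.08, adjusted P = 0.398) and Nfkb1 (log2FC -0.08, SE 0.08, adjusted P = 0.579) did not pass the test. DESeq2 and limma also called Map3k14, the kinase of the alternative branch (log2FC 0.68, SE 0.23, adjusted P = 0.0624 with edgeR).

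**Figure D4:**
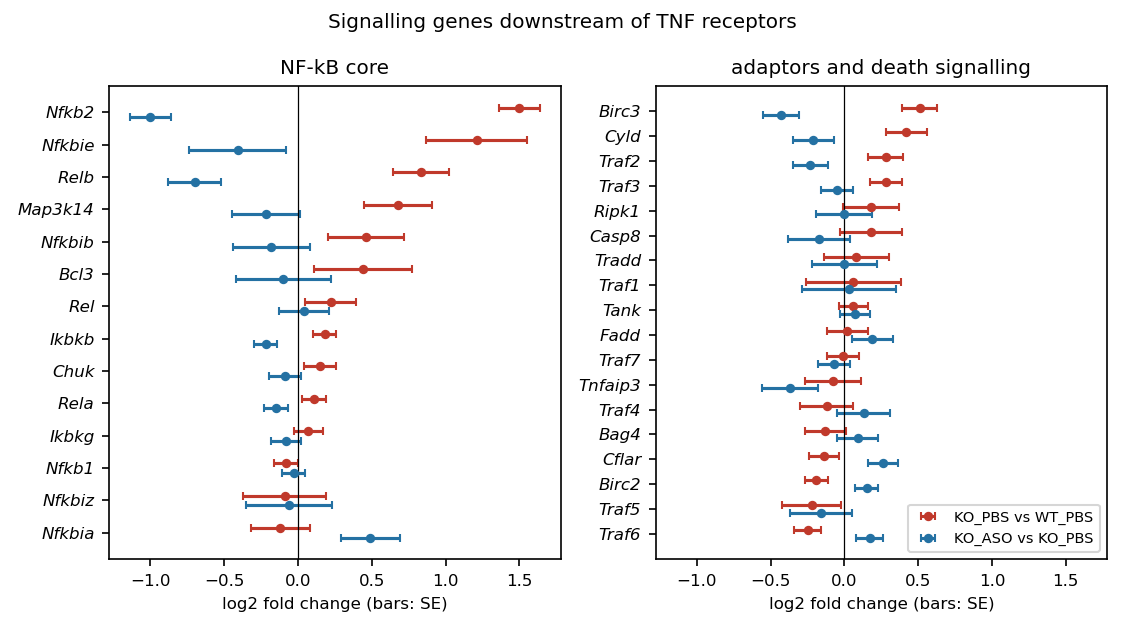
Log2FC (horizontal axis, bars of 1 SE) of 14 NF-kB core genes and 18 adaptor and death signalling genes, with KO_PBS vs WT_PBS in red and KO_ASO vs KO_PBS in blue. Nfkb2 is at the top of its panel, at 1.5 and -1.0, and most adaptor genes lie near 0 (median 0.04 in KO_PBS vs WT_PBS).

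Of 12 NF-kB target genes 8 were tested, and with edgeR 3 rose and 1 fell in KO_PBS, with a median log2FC of -0.04. These 4 were 50% of the 8, beside 12.6% of all genes. This list too was chosen with earlier results of these data known, so nothing is read from that share. DESeq2 called 5, adding Sod2 (log2FC -0.28, adjusted P = 0.0794 with edgeR), and limma called 4. Over all 60 tested genes of the other receptors, ligands, adaptors, NF-kB core and NF-kB targets, 15% were DEGs with edgeR, a share near that of all genes. The NF-kB target genes that rose were Cxcl10 (log2FC 3.30, SE 0.64, adjusted P = 0.0031) and Ccl2 (log2FC 2.40, SE 0.70, adjusted P = 0.0341), which encode chemokines, and Ptgs2 (log2FC 1.96, SE 0.62, adjusted P = 0.0469), an enzyme of prostaglandin synthesis. All 3 had fewer than 100 reads in every sample, and Cxcl10 and Ccl2 were highest in KO_PBS replicate 4, at 2.12 and 1.5 CPM. Vcam1, an adhesion molecule, fell (log2FC -0.59, SE 0.16, adjusted P = 0.0258). The calls of Ccl2, Ptgs2 and Vcam1 were lost without any of 6, 11 and 6 samples in turn, with highest adjusted P = 0.122, 0.14 and 0.0866. The call of Ptgs2 was also lost without the filter on low counts (adjusted P = 0.0662), and that of Vcam1 without scaling beyond totals (adjusted P = 0.0821). With the compared groups alone Ccl2 and Ptgs2 did not pass the filter on low counts and were not tested, nor was Ptgs2 without KO_PBS replicate 4. In KO_ASO vs KO_PBS 0 of the 8 were DEGs with edgeR, 4 had an unadjusted P under 0.05, and DESeq2 called 0 and limma 1.

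As a description of pattern, all genes tested were ranked by the Pearson correlation of their log2 CPM with that of Tnfrsf23 over the 16 samples. These share the 4 groups, so that any gene with a similar order of groups ranks high. The closest were Ahnak2 (r = 0.98), Nab2 (r = 0.975), Arhgap44 (r = 0.966), Anxa4 (r = 0.965) and Serpinb1a (r = 0.964) among 14959 genes. Their log2FC in KO_PBS vs WT_PBS ran from 1.20 (Arhgap44) to 3.98 (Ahnak2), and in KO_ASO vs KO_PBS from -0.95 (Arhgap44) to -2.78 (Ahnak2). Nfkb2 ranked 11 (r = 0.96) and Tnfrsf22 ranked 13 (r = 0.958), the latter with the reads the decoy receptors may share. Tnfrsf12a ranked 226 (r = 0.868) and Eda2r 188 (r = 0.881). The other receptors ranked from 1121 (Tnfrsf1b, r = 0.678) to 6356 (Tnfrsf21, r = 0.101).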

How the data were processed

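Raw counts of reads per gene, without normalization, were deposited by the authors for 16 samples. Per the submitters' processing notes the tools included STAR 2.5.3a, HTSeq 0.6.1p1, cutadapt 1.10 and Bowtie2 2.2.8, with build GRCm38. Whether counting used the strand is not given in the sources used here. All 29730 identifiers matched GENCODE M21. No receptor overlapped a gene with a mean of at least 10 counts. Replicates differed by a mean chi-square per gene of at least 22.2, so none appeared to be a copy of another. Each sample was taken as a separate mouse.

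The robust quasi-likelihood test of edgeR 4.0.16 (R 4.3.3), with a mean for each of the 4 groups, was run on the 14960 genes left by filterByExpr, with TMM scaling and Benjamini-Hochberg adjustment over all of them. The SE is the log2FC divided by the square root of F. CPM use TMM-scaled totals, and RPKM the union of exons. The scripts were tested on simulated data. Receptors, gene lists and marker lists were chosen with earlier results of these data known, and the motifs, the 250 kb window and the 50-base words after values were seen. Genes named were the receptors, Bin1, Dnm2, Tnfsf12, receptor genes beside Tnfrsf23, up to 3 DEGs per list and direction by P, and the 5 genes closest to Tnfrsf23. Osbpl5, the satellite cell genes, Tnfsf10, Tnfsf13, Cd27, Cyld, Traf6, Map3k14, Rela and Nfkb1 were added after their values were seen. Of the other marker lists, T and B cell genes (0 tested), endothelial, neutrophil, fat, Schwann cell and blood genes had 0 DEGs with edgeR in KO_PBS vs WT_PBS or KO_ASO vs KO_PBS (3 and 1 at an unadjusted P under 0.05, and 1 neutrophil gene with DESeq2 in the former). Alternatives used DESeq2 1.42.0 and limma 3.58.1.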

Additional observations from a re-analysis of the deposited data

Results flagged for a closer look

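The effect of the oligonucleotide on Tnfrsf23 differed between genotypes in the interaction term of the edgeR fit, by -1.26 on the log2 scale (SE 0.18). The log2FC was -1.33 in the knockout and -0.07 in the wild type. Tnfrsf23 was among the genes chosen with these samples known, so this is a description.

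Within groups of 4, the gap between the extreme sample and its neighbour was set against the whole range, and compared with Dixon's critical value. Of 36 receptor and group combinations 2 passed it, and chance alone passes about 1 in 20. Tnfrsf1a had 27.6 CPM in KO_ASO replicate 4, where the others had 21.6 to 22.2 CPM, and the gap was 0.898 of the range. Tnfrsf10b had 0.608 CPM in WT_ASO replicate 2, where the others had 1.03 to 1.11 CPM, and the gap was 0.833 of the range.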

How the results depend on the processing

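The receptor calls were computed under 7 alternatives (6 for the interaction) and with each of 16 samples left out. The calls of Tnfrsf23, Tnfrsf22 and Tnfrsf12a in KO_PBS vs WT_PBS, of Tnfrsf23 and Tnfrsf22 in KO_ASO vs KO_PBS and of the Tnfrsf23 interaction held in all of them. Of 1026 receptor values 0 called ones changed sign and 4 changed their call. DESeq2 called 1 receptor in KO_ASO vs WT_PBS, Tnfrsf23 (log2FC 0.68). Tnfrsf1b was called in KO_PBS vs WT_PBS without scaling (log2FC 0.70), without KO_PBS replicate 2 (log2FC 0.67) and with the block. Of the 60 tested genes of the 5 signalling lists (other receptors, ligands, adaptors, NF-kB core and NF-kB targets), 9 (15%, beside 12.6% of all genes) were called in KO_PBS vs WT_PBS, against 14 with DESeq2 (23.3%, beside 16.9%) and 14 with limma-voom (23.3%, beside 18.0%), and 5 to 11 with single samples left out, the 5 without WT_PBS replicate 3 or 4. In KO_ASO vs KO_PBS they were 3 (5.0%, beside 3.64%), against 5 with DESeq2 (8.33%, beside 7.07%), 5 with limma-voom (8.33%, beside 7.95%) and 1 with the compared groups alone, and 1 to 4 with single samples left out. The value of 1 came without WT_PBS replicate 1 or 3, KO_PBS replicate 1 or 4, or KO_ASO replicate 1 or 3. The calls over all genes shifted in the same fits. In KO_PBS vs WT_PBS they ran from 997 to 2137 with single samples left out, against 1878 with all samples. They were 1456 of 15109 without WT_PBS replicate 3 and 1080 of 15102 without WT_PBS replicate 4. In KO_ASO vs KO_PBS they ran from 208 to 831, against 544, and were 300 of 14387 with the compared groups alone. The cause of these shifts was not tested.

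Without scaling beyond totals the median log2FC of all genes in KO_PBS vs WT_PBS was 0.139, against -0.0108 with TMM, and 1942 of 2202 DEGs were higher, against 1112 of 1878. With DESeq2 the DEGs over all genes were 2522 against 1878 with edgeR for KO_PBS vs WT_PBS, 1056 against 544 for KO_ASO vs KO_PBS, 33 against 1 for WT_ASO vs WT_PBS, 95 against 6 for KO_ASO vs WT_PBS and 385 against 86 for the interaction. With limma-voom they were 2699, 1190, 1, 7 and 108 in the same order.

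Samples share replicate numbers across groups, but the labels do not say that a number marks a pair. Deviations from the group means of same-numbered samples correlated at -0.0777 to 0.435 over 24 pairs (median 0.0751), against -0.382 to 0.195 over 72 pairs of samples with different numbers (median -0.0268). The numbers were not taken as pairs because not every same-numbered pair was over 0.1, although 13 of 16 samples correlated best, on average, with their own number, which is a hint from the data and not from the design. With the replicate number as a block, the receptors called were 4 in KO_PBS vs WT_PBS, where Tnfrsf1b joined (log2FC 0.53), 2 in KO_ASO vs KO_PBS, 0 in WT_ASO vs WT_PBS, 0 in KO_ASO vs WT_PBS and 1 in the interaction. Signalling genes called with the block were 12 in KO_PBS vs WT_PBS and 3 in KO_ASO vs KO_PBS, where over all genes 2322 and 752 were called. The 12 included Tnfsf10 and not Ccl2 (adjusted P = 0.0541). The interaction of Eda2r was also called with the block (adjusted P = 0.0365). Depth limits Tnfrsf11a, at 9 to 75 reads per sample.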
